A study of Mus musculus with 22 samples.

Results

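The comparison described here asks in which genes the response of the mouse embryo to Oct4 depends on the stage of the embryo. It set the change that induced Oct4 gave at embryonic day 9.5 (E9.5) against the change it gave at E7.5, gene by gene, in 12 of the 22 RNA-seq libraries of the series. Each library came from a pool of whole embryos on the C57BL/6 background with the genotype ROSA26tg/+; Oct4tg/+, which all 4 groups shared. The groups were E7.5 without doxycycline (control, dox-), E7.5 with doxycycline (induced, dox+), E9.5 control and E9.5 induced, with 3 pools each, of 8 to 12 embryos at E7.5 and of 3 embryos at E9.5. Mothers of induced E7.5 embryos had doxycycline injected into the peritoneum at E4.5 and then in the water, and mothers of induced E9.5 embryos had it in the water from E6.5. Stage and doxycycline regimen therefore cannot be told apart in the comparison, and every induced pool carried the Oct4 transgene, so effects of the drug cannot be told apart from those of Oct4 in these 12 libraries. The promoter that drives the transgene and the cells it is active in are not given in the sources used here.

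Oct4, the product of Pou5f1, is a POU-domain transcription factor that keeps the cells of the epiblast pluripotent. At gastrulation epiblast cells leave through the primitive streak to form mesoderm and endoderm, and Pou5f1 is then switched off, last of all at the caudal end of the embryo. There, in the streak and later the tail bud, Wnt and FGF signals, the Cdx homeobox factors and T keep a pool of progenitors that extends the body axis, and the Hox genes that give the axis its regional identity are switched on in sequence from head to tail.

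The induced gene itself was measured first. Pou5f1 (chromosome 17, 35642982 to 35647721, coordinates of build NCBIM37 as for all genes below) stood at 257, 221 and 224 counts-per-million (CPM, scaled to a common library size) in the E7.5 controls and at 645, 651 and 518 CPM in the induced pools. At E9.5 it stood at 0.827, 0.397 and 1.201 CPM in the controls and at 238, 236 and 259 CPM in the induced pools. Where values of both groups of a stage are given side by side below, the 3 control pools come first and the 3 induced pools after them. Every induced pool was above every control pool of its stage, and the induced E9.5 pools reached about the level of the E7.5 controls. The log2 fold change was 1.37 ± 0.11 (± standard error, SE) at E7.5 and 8.38 ± 0.19 at E9.5, a difference of 7.01 ± 0.24 (adjusted p = 7.44e-10, edgeR's quasi-likelihood test with Benjamini-Hochberg adjustment over all genes, as for every adjusted p below). The 2 inductions thus differed in the step above the endogenous level, and counts of the transgene and of the endogenous gene were not separated. Nanog, a partner of Oct4 in pluripotent cells, had a difference between stages that was not called (-0.19 ± 0.40, adjusted p = 0.873).

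E9.5 control 3 stood apart from the other E9.5 pools in some markers of the lists for maternal tissue (Ly6c1, Des) and parietal endoderm (Srgn), with 14.46 CPM of Ly6c1 (at most 0.132 CPM in the others), 24.03 CPM of Srgn (at most 1.366 CPM) and 88.18 CPM of Des (at most 45.46 CPM). The counts without E9.5 control 3 are given beside the main ones. E7.5 control 2 had the most Prl3d1 and Prl2c2, trophoblast genes, at 40 and 22.89 CPM (at most 7.233 and 3.688 CPM in other E7.5 pools). Hba-a1, an adult globin, stood at 240 and 255 CPM in E7.5 control 2 and induced 2. Other E7.5 pools held 61.9 to 119 CPM. Without E7.5 control 2, 1032 genes had a called difference between stages, and 77 were reversed as defined below.

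Of 16359 genes tested, 1094 (6.69%) had a response that differed between the stages at an adjusted p under 0.05. In 791 of them (4.84% of genes tested) the response was more positive at E9.5 and in 303 (1.85%) more negative, by at least 2-fold in 481 and 160. Without E9.5 control 3 the difference was called in 876 genes (647 more positive and 229 more negative), with 47 genes reversed as defined below and 230 called at E9.5. At E7.5 itself 1713 genes (10.5%) changed, 575 upwards (3.51%) and 1138 downwards (6.96%). At E9.5 321 genes (1.96%) changed, 179 upwards (1.09%) and 142 downwards (0.868%). Most of the stage dependence was a response called at E7.5 and not at E9.5, with 749 genes or 68.5% of the 1094, of which 571 fell and 178 rose at E7.5. The opposite case, a response called at E9.5 and not at E7.5, held for 121 genes (77 rose and 44 fell at E9.5). In 61 genes (0.373% of genes tested) both responses were called and had opposite signs, 45 lower at E7.5 and higher at E9.5 and 16 the other way round, and these are called reversed below. Another 7 genes changed in the same direction at both stages by different amounts, and 156 had a called difference with neither response called. In a fit of each stage on its own 6 libraries, 1297 of 13957 genes tested (9.29%) were called at E9.5 and 991 of 16071 (6.17%) at E7.5, and with those calls 133 genes (0.813% of 16359) were reversed (107 lower then higher, 26 higher then lower), of which 39 are among the 61. In that fit 149 of the 749 genes called only at E7.5 were also called at E9.5, 132 of them with the opposite sign, so the division into classes depends on the fit and the test of the difference itself is the result.

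**Figure D1:**
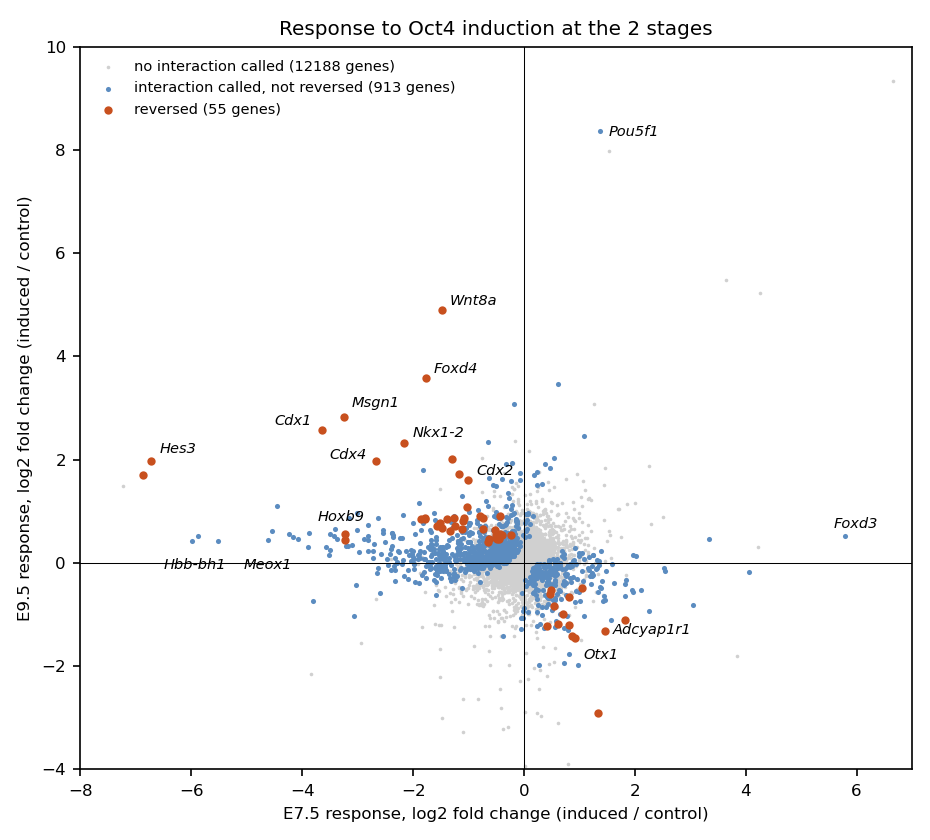
Each point is 1 gene, with its log2 fold change at E7.5 on the x axis and at E9.5 on the y axis, for the 13156 genes with a group mean of at least 1 CPM at each stage (23 genes, none of them reversed, lie outside the axes). Reversed genes fill the upper left quadrant (41 genes) and the lower right one (14 genes), while most other called genes spread along the x axis near 0 at E9.5.

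Over the 13156 genes with a group mean of at least 1 CPM at each stage the 2 responses had Pearson's r of -0.0458 and Spearman's rho of -0.0285, given as a description across genes, which are not independent replicates. The stages share no control pools. Of these genes 968 had a called difference, among them 55 of the reversed genes. All 61 reversed genes had control and induced pools that did not overlap at either stage, which 7.37% of all genes tested also had. The 61 were chosen by calls at both stages in these same pools, so this is a description and no further support. Their difference between stages was called in each of the 12 fits that left out 1 library. In these joint fits the E9.5 calls were less firm than those at E7.5. The E9.5 response was called in all 12 fits for 15 of the 61 genes and the E7.5 response for 43. A joint fit takes both responses from the same dispersions. With each stage fitted alone, more genes were called at E9.5 (1297) than at E7.5 (991), so the lower firmness is a statement about the joint fit. The number of reversed genes fell to 18 without E9.5 control 2 or E9.5 induced 3, to 21 without E9.5 induced 4 and to 26 without E9.5 control 1 or E9.5 induced 5, and rose to 109 without E7.5 induced 2. The 10 genes that were reversed in all 12 fits were Hes3, Wnt8a, Cdx1, Msgn1, Irx3 and Sema4f, which went from lower to higher, and Adcyap1r1, Otx1, Nefl and Elavl2, which went from higher to lower.

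Several genes of the caudal progenitor zone fell with Oct4 at E7.5 and rose with it at E9.5, among them Hes3, Wnt8a, Cdx1 and Msgn1, each with a difference between stages of at least 6 on the log2 scale. The Cdx genes encode caudal homeobox factors that switch on posterior Hox genes, and all 3 of them reversed. In the 250 bases before their start sites, Cdx2 and Cdx4 each hold the octamer ATGCAAAT, the DNA word that POU factors such as Oct4 bind. Both stretches are printed to show where that word lies, 5′ to 3′ on the strand of the gene with the octamer in capitals, from RefSeq on build GRCm38.p6 (chr5:147307250-147307499, minus strand, and chrX:103321148-103321397, plus strand).
Cdx2: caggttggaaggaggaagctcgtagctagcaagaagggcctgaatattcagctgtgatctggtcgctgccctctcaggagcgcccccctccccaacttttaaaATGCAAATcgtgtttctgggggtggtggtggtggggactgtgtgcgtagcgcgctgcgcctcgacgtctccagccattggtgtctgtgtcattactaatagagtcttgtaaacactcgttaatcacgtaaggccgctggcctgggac
Cdx4: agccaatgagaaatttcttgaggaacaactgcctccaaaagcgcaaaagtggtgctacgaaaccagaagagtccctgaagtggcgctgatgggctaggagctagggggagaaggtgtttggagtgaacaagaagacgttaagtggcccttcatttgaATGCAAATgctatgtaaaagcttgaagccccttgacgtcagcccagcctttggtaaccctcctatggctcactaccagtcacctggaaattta
The octamer begins 147 bases before the start site of Cdx2 and 93 bases before that of Cdx4. Of the 61 reversed genes 39 had a RefSeq window, from 250 bases before to 50 bases after the start, and 3 of those (7.69%; Cdx2, Cdx4 and Slc7a11) held ATGCAAAT on either strand, against 532 of 27025 genes with a window (1.97%). Slc7a11 moved the opposite way to the Cdx genes, and Cdx1, which also reversed, was not among the genes with a match. A match of letters is a description and does not show binding.

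Cdx1 stood at 129, 66.2 and 143 CPM in the E7.5 controls and at 7.76, 9.196 and 10.2 CPM in the induced pools. At E9.5 the controls held 3.31, 4.23 and 3.12 CPM and the induced pools 18.3, 24.97 and 22.7 CPM. Induced pools were thus all below the controls at E7.5 and all above them at E9.5, with log2 fold changes of -3.65 ± 0.27 and 2.57 ± 0.36 and a difference of 6.22 ± 0.44 (adjusted p = 2.12e-05). Cdx4 (chromosome X, 100516737 to 100525931) fell from 14.9, 9.86 and 14.9 to 1.75, 1.86 and 2.75 CPM at E7.5 and rose from 2.38, 7.401 and 11.1 to 29.3, 26.3 and 25.1 CPM at E9.5. Cdx2 (chromosome 5, 148112381 to 148118846) fell from 139.6, 101 and 129 to 50.2, 62.5 and 71.6 CPM and rose from 3.1, 8.92 and 10.2 to 21.8, 23.8 and 23.2 CPM. In both genes no pools of a stage overlapped, and E9.5 control 1 was the lowest of its group. The differences between stages were 4.63 ± 0.54 for Cdx4 and 2.62 ± 0.39 for Cdx2 (adjusted p = 0.000327 and 0.00228). Their rise at E9.5 was called in the joint fit (adjusted p = 0.0256 and 0.0326) and not in the fit of E9.5 alone (0.0799 for each), and Cdx4 was reversed in 8 and Cdx2 in 4 of the 12 fits without 1 library.

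Wnt8a, a Wnt ligand of the primitive streak and caudal epiblast, had lower levels with Oct4 at E7.5 and higher ones at E9.5. It stood at 36.8, 23.4 and 33.5 CPM in the E7.5 controls and at 11.02, 10.9 and 11.6 CPM in the induced pools. At E9.5 the controls were near the detection limit, at 0.517, 0.33 and 0.601 CPM, and the induced pools held 13.3, 15.02 and 13.1 CPM. The induced pools of both stages thus lay at similar levels, below the E7.5 controls and above the E9.5 controls. The log2 fold changes were -1.48 ± 0.14 and 4.896 ± 0.27, and their difference was 6.38 ± 0.30 (adjusted p = 2.99e-08).

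Hes3 (chromosome 4, 151660081 to 151665771), a Hairy/Enhancer-of-split repressor of neural progenitors, had the largest difference of the genes named by size, 8.70 ± 0.52 (adjusted p = 8.86e-07). In the E7.5 pools it went from 9.05, 4.51 and 9.06 CPM in controls to 0.106, 0.032 and 0.0436 CPM in induced pools, and in the E9.5 pools from 5.37, 7.47 and 8.53 to 30.6, 23.2 and 29.4 CPM. Its loss at E7.5 was nearly complete. The induced E7.5 pools lay near or below the level of 3 counts, 0.0797 to 0.131 CPM in those libraries. The size of the Hes3 difference is therefore poorly fixed, and it ran from 8.388 to 10.294 over the alternative analyses. Msgn1, a bHLH factor of the presomitic mesoderm, went from 19.2, 13.2 and 26.3 to 2.099, 1.38 and 2.84 CPM at E7.5 and from 0.517, 0.859 and 1.56 to 7.24, 7.02 and 5.96 CPM at E9.5, a difference of 6.07 ± 0.50 (adjusted p = 1.3e-05). Nkx1-2, a homeobox gene of the caudal epiblast and its neuromesodermal progenitors, went from 153, 96.03 and 137 to 24.9, 19.5 and 42.8 CPM at E7.5 and from 2.58, 5.19 and 9.97 to 27.97, 30.2 and 28.6 CPM at E9.5. No pools of a stage overlapped in either gene. The difference for Nkx1-2 was 4.49 ± 0.58 (adjusted p = 0.00154), and it was reversed in 4 of the 12 fits without 1 library.

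**Figure D2:**
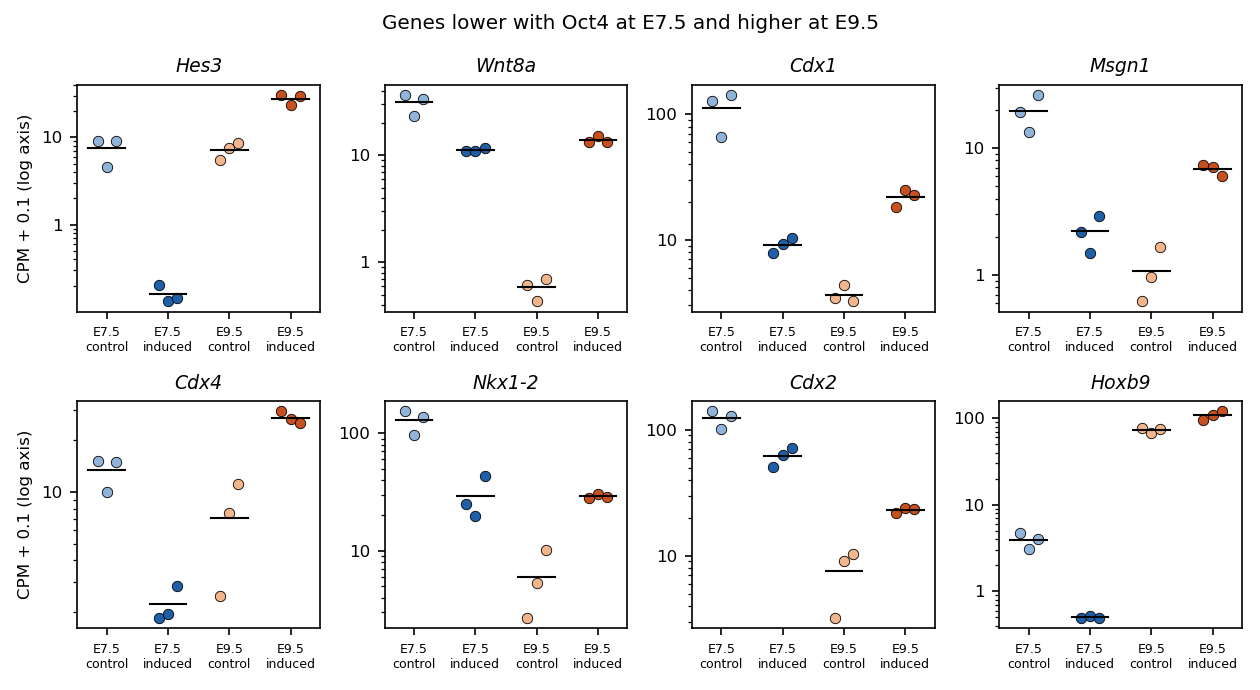
Level of 8 reversed genes in each of the 12 libraries, as CPM plus 0.1 on a log axis. Points are pools, bars are group means, and in every panel the induced pools lie below the controls at E7.5 and above them at E9.5.

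Other genes of the streak and tail bud did not all reverse. In the list of 24 streak and nascent mesoderm genes, 11 had a more positive response at E9.5 and 3 a more negative one (4.84% and 1.85% of all genes tested). Cdx1, Cdx2, Cdx4, Wnt8a, Msgn1 and Nkx1-2 were the 6 that reversed. The list's median was 0.16 at E7.5, 1.18 at E9.5 and 0.98 for the difference, against 0.002, -0.008 and -0.003 over all genes tested. T (Brachyury), the T-box factor at the head of the mesoderm programme, was higher in every induced pool than in every control pool of its stage, and its difference between stages was not called (0.86 ± 0.37, adjusted p = 0.242). Its levels went from 169.6, 234 and 181 to 318, 302 and 371 CPM at E7.5 (adjusted p = 0.057, which misses the threshold) and from 4.65, 10.7 and 14.5 to 33.5, 26.7 and 30.4 CPM at E9.5 (adjusted p = 0.0238).

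Tbx6, a T-box factor of the presomitic mesoderm, and Fgf3, a caudal FGF ligand, changed only at E9.5 by these calls. Tbx6 rose from 1.65, 2.77 and 4.08 to 10.7, 10.7 and 10.3 CPM at E9.5 and stood at 30.5, 27.4 and 34.2 and 21.97, 21.2 and 30.3 CPM at E7.5. The difference was 2.25 ± 0.29 for Tbx6 and 2.14 ± 0.30 for Fgf3 (adjusted p = 0.000269 and 0.000657). Wnt3a, the Wnt ligand that maintains the tail bud, and Rspo3, a secreted enhancer of Wnt signalling, fell at E7.5 only, with differences of 1.58 ± 0.21 and 1.16 ± 0.17 (adjusted p = 0.000217 and 0.000647). In the fit of E9.5 alone both rose as well (adjusted p = 0.043 and 0.0129). Evx1, a homeobox gene of the posterior streak, rose at both stages and more at E9.5, from 29.1, 24.9 and 27.8 to 43.5, 39.2 and 36.4 CPM and from 1.24, 1.85 and 3.12 to 8.03, 9.37 and 7.61 CPM (0.54 ± 0.13 and 2.03 ± 0.22).

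Genes of the early streak took another course. Wnt3, the ligand that starts streak formation, rose from 2.96, 4.16 and 3.32 to 23.9, 21.2 and 15.1 CPM at E7.5 and stood at 4.86, 4.29 and 3.84 and 4.76, 3.71 and 3.42 CPM at E9.5, where the groups overlapped. The difference was -2.63 ± 0.29 (adjusted p = 5.81e-05), and Sp5, a Wnt target, had one of -0.86 ± 0.18 (adjusted p = 0.00955). The T-box factor Eomes and the homeobox gene Mixl1, both of the early streak, rose at E7.5 (2.35 ± 0.16 and 1.29 ± 0.18) and had at most 0.39 and 1.32 CPM in any E9.5 pool. Their differences between stages were not called (adjusted p = 0.755 and 1), which at such levels does not show that the responses were alike.

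The Hox genes held the most called differences of the 37 gene lists. Of 35 Hox genes tested 30 had a more positive response at E9.5 and 0 a more negative one (4.84% and 1.85% of all genes tested). DESeq2 called 30 (7.71% of all genes) and limma-voom 25 (6.05%), and 31 had an unadjusted p under 0.05 (18.8% of all genes). At E7.5 29 of the 35 fell and 0 rose (29 had an unadjusted p under 0.05, which 21.7% of all genes had). At E9.5 7 rose and 0 fell (23 had an unadjusted p under 0.05, which 12.8% of all genes had), and those 7, Hoxa7, Hoxa9, Hoxb7, Hoxb9, Hoxd3, Hoxd8 and Hoxd9, were all reversed. In that order they were reversed in 6, 4, 7, 7, 5, 6 and 11 of the 12 fits without 1 library. Among all genes tested 1.09% rose and 0.868% fell at E9.5. In the fit of E9.5 alone 21 rose, where 4.69% of all genes did and 4.61% fell, and with those calls 16 were reversed. The list's median log2 fold change was -2.81 at E7.5 and 0.56 at E9.5, against 0.002 and -0.008 over all genes tested.

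Hoxb9, a posterior gene that is switched on late, stood at 4.62, 2.97 and 3.93 CPM in the E7.5 controls and at 0.399, 0.417 and 0.393 CPM in the induced pools. At E9.5 it stood at 77.4, 67.5 and 75.2 and 93.8, 109.8 and 119.7 CPM, so a deep loss at E7.5 stood beside a small rise from a much higher level at E9.5. The responses were -3.22 ± 0.22 and 0.56 ± 0.11, and the difference was 3.78 ± 0.25 (adjusted p = 1.06e-06). Hoxd9 went from 7.68, 8.31 and 8.47 to 1.94, 2.63 and 2.18 CPM at E7.5 and from 9.403, 9.78 and 11.3 to 19.2, 20.1 and 15.9 CPM at E9.5, with a difference of 2.72 ± 0.20 (adjusted p = 2.24e-06). Pools did not overlap in either gene at either stage. Hoxb1, a gene of the anterior end of its cluster whose expression marks the early streak and later a segment of the hindbrain, went from 67.6, 56.7 and 78.05 to 19.5, 16.6 and 29.8 CPM at E7.5 and from 13.6, 15.5 and 19.7 to 28.9, 32.97 and 33.8 CPM at E9.5. Its difference was 2.60 ± 0.30 (adjusted p = 0.000193), and its higher level at E9.5 missed the threshold in the joint fit (adjusted p = 0.0513) and passed it in the fit of E9.5 alone (4.8e-05).

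Hoxa2, which patterns the hindbrain and its crest, stood at 3.49, 2.75 and 3.96 and 0.505, 0.385 and 0.567 CPM at E7.5 and at 19.2, 17.1 and 16.8 and 26.8, 22.8 and 26.5 CPM at E9.5, a difference of 3.34 ± 0.24 (adjusted p = 2.02e-06). Hoxc5 and Hoxc10 had a called difference too, but a group with 0 counts, and no fold change is given for them. The 5 Hox genes without a called difference were Hoxa10, Hoxa11, Hoxd10, Hoxd11 and Hoxd12, of which Hoxa10 stood at 10.7, 10.5 and 8.298 and 7.25, 5.96 and 5.32 CPM at E7.5 and at 5.89, 6.61 and 18.02 and 16.1, 18.9 and 12.8 CPM at E9.5. In that gene E9.5 control 3 overlapped the induced pools.

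**Figure D3:**
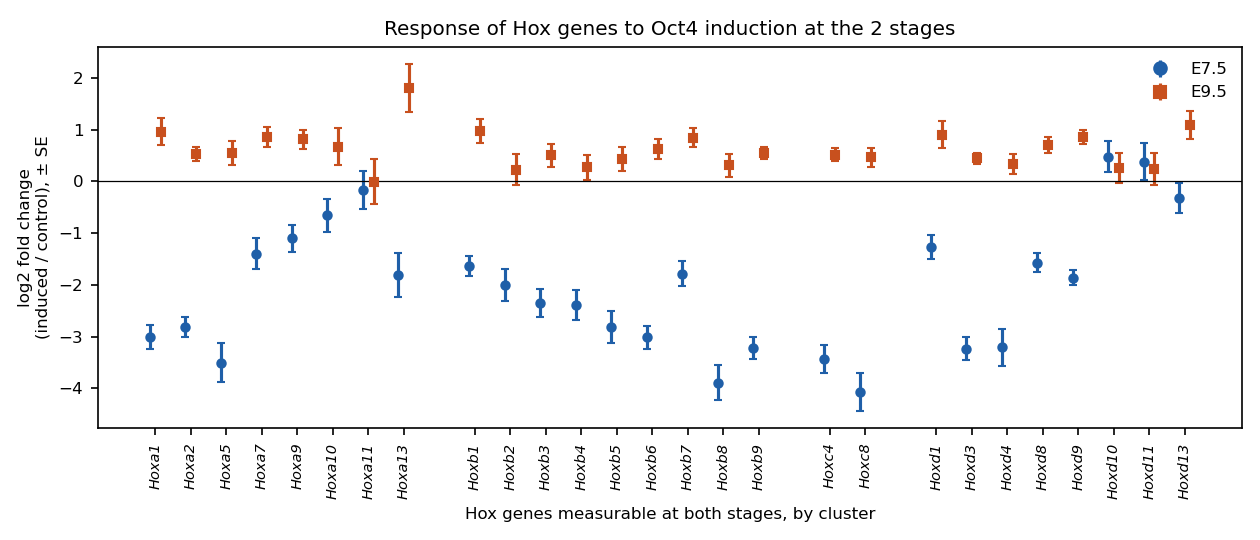
Log2 fold change of the 27 Hox genes with a group mean of at least 1 CPM at each stage, at E7.5 (circles) and E9.5 (squares), ordered by cluster and number, with bars of 1 SE. Most circles lie well below 0 and most squares between 0 and 1.

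Further genes that went from lower to higher included factors of the neural plate and a Wnt ligand with its receptor. Gbx2, a homeobox factor that sets the anterior limit of the hindbrain, went from 68.8, 43.6 and 64.4 to 16.02, 14.7 and 21.1 CPM at E7.5 and from 11.8, 14.96 and 13.2 to 25.1, 24.2 and 24.4 CPM at E9.5 (-1.78 ± 0.16 and 0.88 ± 0.19). Irx3, an Iroquois homeobox factor of the neural plate, went from 66.5, 55.3 and 59.7 to 31.5, 35.02 and 42.01 CPM and from 44.4, 47.8 and 43.4 to 66.9, 77.6 and 70.8 CPM (-0.74 ± 0.10 and 0.66 ± 0.11). The pools did not overlap at either stage in these genes. Irx3 was reversed in all 12 fits without 1 library and Gbx2 in 5 of them. Hesx1, an anterior homeobox repressor, and Foxd4, a forkhead gene of the early neural plate, had low levels. Hesx1 went from 7.75, 4.76 and 4.897 to 2.52, 2.403 and 2.79 CPM and from 0.31, 0.529 and 0.601 to 1.41, 1.56 and 1.88 CPM, and Foxd4 from 7.71, 6.14 and 5.25 to 1.79, 1.59 and 2.19 CPM and from 0, 0.0661 and 0.24 to 1.76, 1.171 and 0.441 CPM. Their E9.5 controls lay near the limit of 3 counts, which was 0.198 to 0.36 CPM in those libraries, so that the size of their rise is poorly fixed. Hesx1 was reversed in 6 and Foxd4 in 8 of the 12 fits without 1 library.

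Sema4f, a semaphorin that acts in axon guidance, went from 1.55, 1.57 and 2.06 to 0.717, 0.545 and 0.873 CPM at E7.5 and from 1.45, 1.45 and 0.841 to 5.82, 5.27 and 4.41 CPM at E9.5, a difference of 3.31 ± 0.38 (adjusted p = 6.64e-05). Hand1, a bHLH factor of lateral mesoderm, heart and trophoblast, went from 152, 147 and 165 to 68.3, 57.7 and 94.9 CPM and from 14.3, 20.5 and 22.2 to 35.6, 37.3 and 32.1 CPM, and was reversed in 2 of the 12 fits without 1 library. Wnt5a, a ligand of axis elongation, and Ror2, its receptor, reversed with small steps of -0.44 ± 0.09 and 0.46 ± 0.10 for Wnt5a and of -0.50 ± 0.10 and 0.47 ± 0.10 for Ror2. Wnt5a was reversed in 7 and Ror2 in 5 of the 12 fits without 1 library. The other reversed genes with these signs included Efnb1, an ephrin ligand, Krt8, an epithelial keratin, and Slc2a3, a glucose transporter, with differences of 1.08 ± 0.11, 0.94 ± 0.17 and 0.98 ± 0.13. Efnb1 was reversed in 9, Krt8 in only 3 and Slc2a3 in 11 of the 12 fits without 1 library. The rise of Slc2a3 at E9.5 was not called in the fit of E9.5 alone (adjusted p = 0.0959).

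Fewer genes, 16 of the 61, went the opposite way, higher at E7.5 and lower at E9.5. Adcyap1r1, the receptor of the neuropeptide PACAP, stood at 8.798, 7.71 and 7.54 CPM in the E7.5 controls and at 22.8, 24.4 and 18.8 CPM in the induced pools. At E9.5 it stood at 29.97, 28.02 and 24.5 CPM in the controls and at 11.1, 10.7 and 10.9 CPM in the induced pools. The pools were separate at both stages, and the difference was -2.79 ± 0.17 (adjusted p = 6.39e-07). Otx1, a homeobox factor of forebrain and midbrain, went from 1.55, 2.26 and 1.85 to 4.28, 3.36 and 3.05 CPM at E7.5 and from 17.7, 16.9 and 18.7 to 7.68, 6.05 and 5.29 CPM at E9.5, a difference of -2.39 ± 0.26 (adjusted p = 4.89e-05). Nefl, the light neurofilament chain, went from 11.6, 13.04 and 14.2 to 24.7, 18.8 and 20.1 CPM and from 26.6, 23.98 and 22.6 to 11.1, 12.1 and 13.8 CPM, a difference of -1.70 ± 0.18 (adjusted p = 4.35e-05). In each of these 3 genes the sign held in all 12 fits without 1 library.

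Elavl2, an RNA-binding protein of neurons, and Dpysl3, a protein of growing axons, had high counts and small errors. Elavl2 went from 12.6, 12.3 and 11.4 to 16.6, 16.9 and 17.1 CPM and from 34.5, 34.2 and 31.96 to 24.4, 23.02 and 22.5 CPM (0.48 ± 0.08 and -0.52 ± 0.09), and Dpysl3 from 28.3, 24.3 and 27.2 to 64.4, 51.6 and 48.5 CPM and from 163, 156 and 142 to 104, 113 and 112 CPM (1.04 ± 0.10 and -0.49 ± 0.10). Slc7a11, the cystine transporter, stood near the floor in the E7.5 controls, at 0.2, 0.377 and 0.287 CPM, and rose to 1.01, 1.14 and 1.11 CPM. At E9.5 it fell from 8.09, 7.72 and 6.03 to 3.54, 3.07 and 3.45 CPM. Cnpy1, Spon1, Dmrta1 and Coro1a, which the rule for reversed genes named by the smaller of their responses, had differences of -1.80 ± 0.22, -1.49 ± 0.21, -2.29 ± 0.40 and -1.39 ± 0.23. Dmrta1 was reversed in only 1, Coro1a in 3, Spon1 in 4 and Cnpy1 in 10 of the 12 fits without 1 library. For Dpysl3 and Slc7a11 it was 7 fits each. Olig2, a bHLH factor of the ventral neural tube, fell from 13.7, 13.3 and 13.3 to 2.03, 1.95 and 2.54 CPM at E9.5, while its E7.5 pools held at most 0.478 CPM, so that the rise called there rests on few counts.

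**Figure D4:**
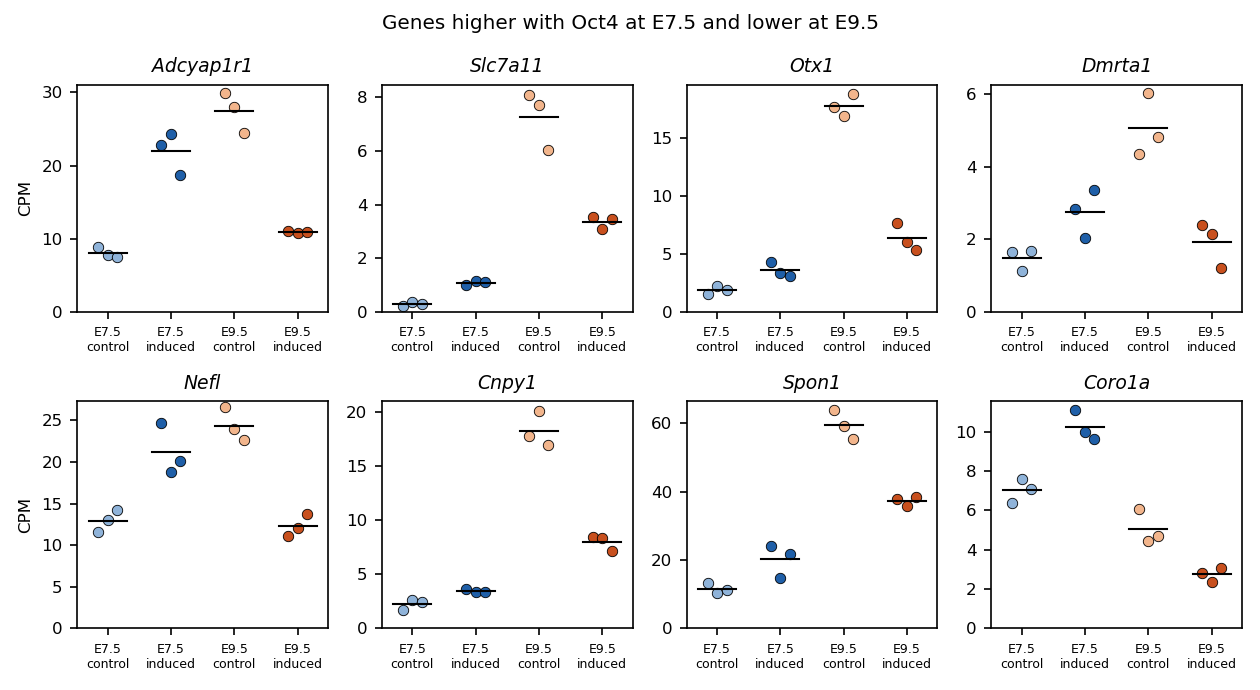
Level of 8 reversed genes in CPM in each of the 12 libraries, with points for pools and bars for group means. In every panel the induced pools lie above the controls at E7.5 and below them at E9.5.

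Among the genes called only at E7.5, the largest differences named by size included embryonic globins and mesoderm genes that fell with Oct4 at E7.5. In the list of 30 primitive haematopoiesis genes 18 had a more positive response at E9.5 and 1 a more negative one, and 18 fell at E7.5 while 1 rose at E9.5. The matching shares of all genes tested were 4.84%, 1.85%, 6.96% and 1.09%. Hbb-bh1, an embryonic beta globin, stood at 54.5, 110.4 and 62.02 CPM in the E7.5 controls and at 0.824, 1.19 and 1.702 CPM in the induced pools, a response of -6.00 ± 0.36. At E9.5 it stood at 1478 ± 176 and 1990 ± 239 CPM (mean ± SD, n = 3), a response of 0.43 ± 0.24 (adjusted p = 0.532). Globins are close copies whose reads the authors' counting divides between them, so single globins are uncertain. Klf1, the transcription factor that drives red cell genes, went from 3.46, 4.93 and 4.39 to 0.345, 0.352 and 0.524 CPM at E7.5 and from 6.92, 9.12 and 8.65 to 13.1, 15.8 and 10.7 CPM at E9.5, where the pools did not overlap but the joint fit made no call (adjusted p = 0.119; 0.0114 in the fit of E9.5 alone). In the fit of E9.5 alone 11 of the 30 genes rose, and 3 were then reversed. In bulk tissue fewer cells of a type and less RNA per cell cannot be told apart. Markers of visceral endoderm and yolk sac, the tissue in which the first blood forms, summed to 7133 to 8961 CPM in the E7.5 controls, 6734 to 8336 CPM in the induced pools, 161.2 to 171.2 CPM in E9.5 control pools and 178 to 193.3 CPM in induced ones, and 1 of 24 was called lower at E7.5. Alb was at 0 in the induced E7.5 pools and at 0, 0.0275 and 0 CPM in the E7.5 controls. The part of these markers in the blood genes' difference was not tested.

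Of 22 endothelial genes 12 were more positive at E9.5, 15 were lower at E7.5 and 0 were called at E9.5 in either direction (2 had an unadjusted p under 0.05, and 2 were called lower in the fit of E9.5 alone). Over all genes tested 4.84% were more positive, 1.85% were more negative and 6.96% were lower at E7.5. At E9.5 1.96% were called, and 12.8% had an unadjusted p under 0.05. Tek, the angiopoietin receptor, stood at 12.7, 13.3 and 13.1 and 3.75, 3.52 and 3.97 CPM at E7.5 and at 34.2, 29.9 and 35.8 and 30.4, 27.9 and 28.9 CPM at E9.5, where the pools overlapped. Of 14 cardiac transcription factors 12 had a more positive response at E9.5, 10 fell at E7.5 and 2, Gata6 and Hand1, rose at E9.5. Tbx5, a T-box factor of heart and forelimb, went from 1.695, 0.771 and 1.45 to 0.0797, 0.128 and 0.131 CPM at E7.5 and stood at 13.6, 13.3 and 10.8 and 15.2, 13.3 and 16.1 CPM at E9.5 (-3.49 ± 0.37 and 0.24 ± 0.20). Among 17 sarcomere genes 7 were more positive and 1 more negative at E9.5. Tnnt2, cardiac troponin T, had levels of 3.32, 1.98 and 2.64 and 0.292, 0.128 and 0.654 CPM at E7.5, and at E9.5 its control and induced pools overlapped (difference 3.18 ± 0.37).

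In the list of 26 somite and paraxial mesoderm genes 8 were more positive and 1 more negative at E9.5. Beside this and the lists that follow stand 4.84% and 1.85% of all genes tested. Meox1, a homeobox factor of the somite, went from 12.6, 8.62 and 16.1 to 0.425, 0.577 and 0.524 CPM at E7.5 and from 65.2, 62.9 and 71.4 to 80.7, 95.02 and 94.7 CPM at E9.5, with responses of -4.62 ± 0.26 and 0.44 ± 0.16 and a difference of 5.05 ± 0.32 (adjusted p = 1.87e-06). Aldh1a2, the enzyme that makes retinoic acid in the trunk mesoderm, went from 146, 84.2 and 149 to 7.44, 6.06 and 7.505 CPM and from 47.8, 45.4 and 49.9 to 62.2, 68.3 and 71.7 CPM, a difference of 4.67 ± 0.27 (adjusted p = 2.21e-06). Both higher levels at E9.5 were called in the fit of E9.5 alone (adjusted p = 0.000741 and 5.81e-05) and not in the joint fit (adjusted p = 0.257 and 0.272). Of 18 genes of retinoic acid supply and response 6 were more positive and 1 more negative at E9.5, among them Rarb, a receptor gene that is itself a target (2.29 ± 0.29), and Crabp2, a binding protein (1.97 ± 0.23). In the limb, lateral mesoderm and kidney list 10 of 16 were more positive, with Tbx4, the hindlimb T-box factor, at 5.57 ± 0.69. In the neural crest list it was 10 of 23, with 1 more negative. Among imprinted genes 9 of 16 were more positive and 1 was more negative, including Dlk1 (1.56 ± 0.11) and Igf2 (1.09 ± 0.12), 2 paternally expressed growth regulators.

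Of the genes that rose with Oct4 at E7.5 and were not called at E9.5, Foxd3 had the largest difference of those named by size. Foxd3, a forkhead factor of epiblast and neural crest, went from 0.146, 0.332 and 0.0771 to 13.6, 11.3 and 6.32 CPM at E7.5 and stood at 4.24, 3.701 and 3.72 and 5.38, 5.66 and 5.74 CPM at E9.5. The pools did not overlap at either stage, the responses were 5.79 ± 0.37 and 0.52 ± 0.31, and the difference was -5.26 ± 0.50 (adjusted p = 1.96e-05). Of 16 genes of the primed epiblast list 5 had a more negative and 2 a more positive response at E9.5, and 9 rose and 2 fell at E7.5. The matching shares of all genes tested were 1.85%, 4.84%, 3.51% and 6.96%. Dnmt3b, a de novo DNA methyltransferase, rose from 774, 772 and 653 to 1816, 1209 and 1341 CPM at E7.5 and stood at 65.2, 62.5 and 64.98 and 73.3, 72.2 and 74.1 CPM at E9.5, a difference of -0.80 ± 0.17 (adjusted p = 0.0123). Zic5, a zinc-finger factor of epiblast and dorsal neural tissue, had a difference of -1.41 ± 0.15, and Fgf5, a ligand that marks the primed epiblast, one of -3.53 ± 0.78 with at most 0.961 CPM in any E9.5 pool. Dclk1, a kinase that binds microtubules in neurons, rose from 8.91, 13.4 and 9.19 to 48.4, 46.8 and 40.7 CPM and had a difference of -2.63 ± 0.21 (adjusted p = 5.39e-06). In the fit of E9.5 alone it fell there (adjusted p = 0.00187).

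Of 25 core and naive pluripotency genes tested 1 was more positive (Lin28a, 0.65 ± 0.13) and 1 more negative (Nr0b1, -3.42 ± 0.66) at E9.5, next to 6.69% called among all genes, and 8 had an unadjusted p under 0.05, which 18.8% of all genes had. DESeq2 called 4 of the 25 and limma-voom 3. At E7.5 9 rose and 0 fell (15 had an unadjusted p under 0.05), and at E9.5 4 rose (Sall4, Lefty1, Lin28a and L1td1) and 1 fell (Lin28b). L1td1, an RNA-binding protein of pluripotent cells, went from 92.5, 110.4 and 93.4 to 200.1, 226 and 194 CPM and from 1.65, 2.05 and 1.802 to 5.47, 4.68 and 6.29 CPM, rises of 1.07 ± 0.09 and 1.58 ± 0.19. Utf1, a chromatin factor of pluripotent cells, rose from 31.1, 30.6 and 30.1 to 82.4, 80.5 and 78.6 CPM at E7.5 and had at most 0.585 CPM in any E9.5 pool, so that a difference in response was not detectable at this depth (adjusted p = 0.607).

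Amino acid supply genes were a list of 24 targets of the stress factor Atf4. Of these, 6 had a more negative and 1 a more positive response at E9.5 (1.85% and 4.84% of all genes tested). They included Slc7a11, described above, and Slc7a3, a transporter of basic amino acids, which went from 21.3, 26.2 and 21.2 to 119.8, 84.4 and 75 CPM at E7.5 and stood at 2.79, 1.85 and 2.64 and 3, 3.12 and 1.76 CPM at E9.5, where the pools overlapped (difference -1.88 ± 0.39, adjusted p = 0.011).

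Genes that changed at E9.5 and not at E7.5 fell into a rising and a falling group. Foxh1, the DNA-binding partner of Smads in Nodal signalling, rose from 2.58, 2.77 and 2.403 to 8.03, 11.5 and 7.06 CPM at E9.5 and stood at 91.1, 66.05 and 75.95 and 99.2, 82.7 and 81.6 CPM at E7.5, with a difference of 1.52 ± 0.26 (adjusted p = 0.00234). Phlda2, an imprinted regulator of placental growth, rose from 1.96, 1.98 and 2.52 to 7.32, 5.27 and 6.18 CPM (1.60 ± 0.20) and did not pass the test at E7.5 (-0.07 ± 0.09). In both genes the induced E9.5 level stayed far below the E7.5 level. Aldh1a3, an enzyme that makes retinoic acid in the eye and face, fell from 21.7, 28.5 and 26.9 to 8.62, 5.94 and 4.599 CPM at E9.5, and its E7.5 pools overlapped at 2.32, 1.81 and 2.32 and 2.1, 3.21 and 2.55 CPM. The difference was -2.26 ± 0.31 (adjusted p = 0.000327). Foxa2, a forkhead factor of floor plate and endoderm, and Cntn2, an axonal adhesion protein, also fell at E9.5, with responses of -0.86 ± 0.19 and -1.77 ± 0.32. In a fit over all 22 libraries of the series Cntn2 was also called higher at E7.5 (0.81 ± 0.24, adjusted p = 0.0319). Foxa2 narrowly missed the threshold there (0.41 ± 0.13, adjusted p = 0.0544), so the absence of an E7.5 response is not firm for either gene.

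Of 31 genes of neuronal differentiation 7 had a more negative and 3 a more positive response at E9.5 (1.85% and 4.84% of all genes tested). At E9.5 11 fell and 0 rose (21 had an unadjusted p under 0.05, and the fit of E9.5 alone called 17 lower and 1 higher), while at E7.5 5 rose and 7 fell. Among all genes tested 0.868% fell and 1.09% rose at E9.5, and 12.8% had an unadjusted p under 0.05. At E7.5 3.51% rose and 6.96% fell, and the fit of E9.5 alone called 4.61% lower and 4.69% higher. Their median response was -0.74 at E9.5 and -0.15 at E7.5. Neurog2, a bHLH factor that starts neurogenesis, fell from 14.6, 14.5 and 16.5 to 7.24, 7.02 and 5.84 CPM at E9.5 and had at most 0.325 CPM at E7.5, which leaves no call for a difference (adjusted p = 0.713).

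Besides Pou5f1, 6 genes changed in 1 direction at both stages by different amounts. Evx1, described above, and Eras, a Ras-like GTPase of embryonic stem cells, rose more at E9.5 on the log2 scale. Eras went from 14.8, 14.9 and 14.97 to 25.9, 23.8 and 18.97 CPM at E7.5 and from 0.103, 0.132 and 0.12 to 1.76, 1.16 and 1.103 CPM at E9.5. Its E9.5 controls lay below the level of 3 counts (0.198 to 0.36 CPM in those libraries), so the size of its rise there is poorly fixed. Shh, the secreted signal of notochord and floor plate, fell at both, from 8.98, 7.01 and 6.15 to 0.337, 0.609 and 0.666 CPM and from 21.1, 21.4 and 17.1 to 11.5, 11.3 and 12.99 CPM (-3.81 ± 0.22 and -0.73 ± 0.18). Vim, the intermediate filament of mesenchyme, fell by a response of -0.80 ± 0.09 and -0.36 ± 0.09. The others were Slc1a2 and 1700019D03Rik.

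Among the lists with few calls, next to 6.69% of all genes, 0 of 30 genes of the cell cycle list were called (1 at an unadjusted p under 0.05, 0 by DESeq2 and 0 by limma-voom). None of the 13 mitochondrially encoded genes was called (0 at an unadjusted p under 0.05, 0 by DESeq2 and 0 by limma-voom). Of 40 ribosomal protein genes 1, Rpl3, was called, and that call was lost in 12 of 22 alternative analyses. The lists of p53 targets (1 of 21), chromatin and DNA methylation (1 of 16) and maternal decidua and blood (1 of 15) lay near that share. Visceral endoderm and yolk sac (2 of 24) lay slightly above it. In that order 3, 2, 5 and 7 members had an unadjusted p under 0.05, which 18.8% of all genes had. DESeq2 called 2, 2, 1 and 4 of them and limma-voom 1, 2, 1 and 1.

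**Figure D5:**
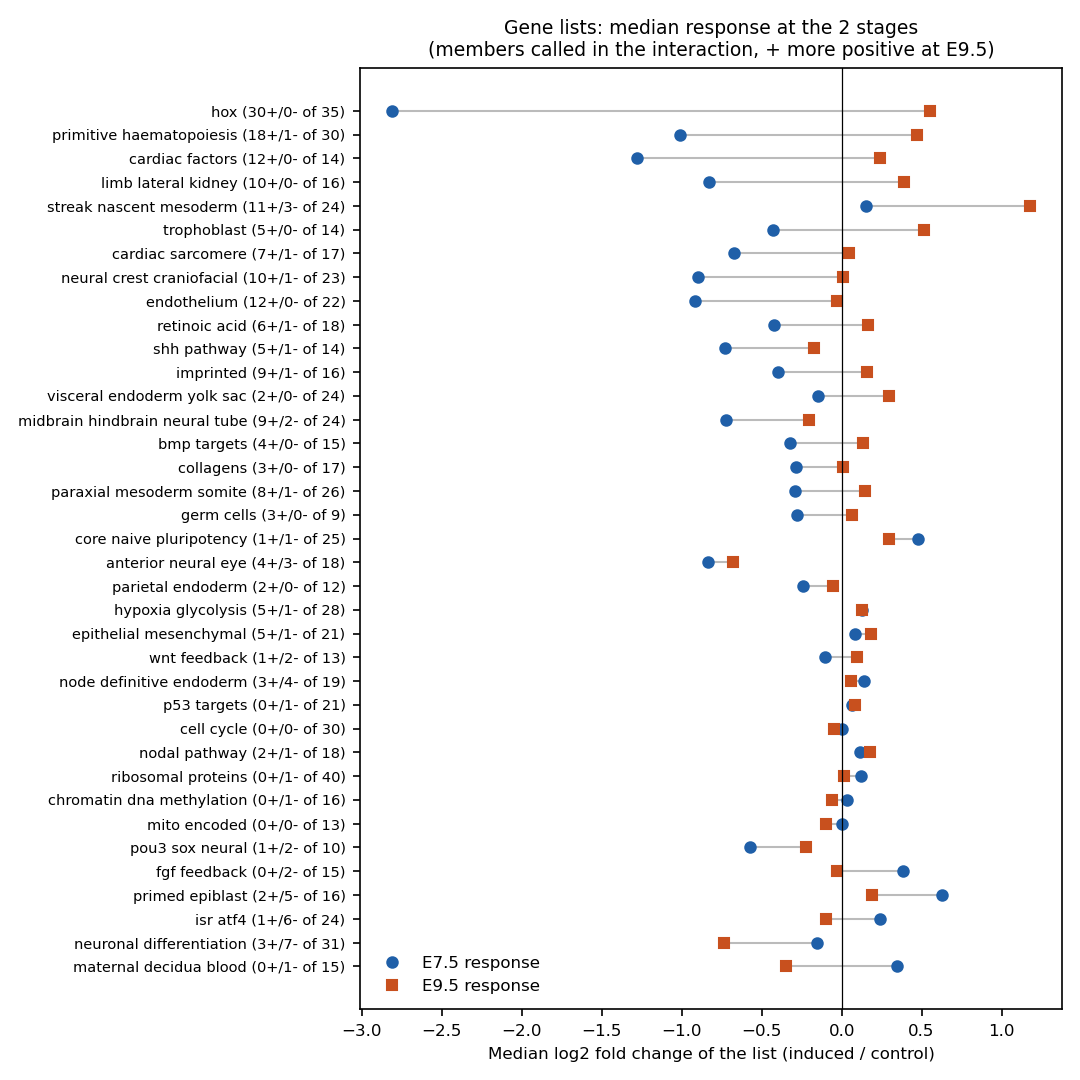
Median log2 fold change of each of the 37 gene lists at E7.5 (circles) and E9.5 (squares), joined by a line and ordered by the median difference. The Hox list has the widest gap, from -2.81 to 0.56, and the numbers beside each name give the members called more positive (+) and more negative (-) at E9.5 of those tested.

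The lines with an inducible Nanog transgene, of the same series, gave a point of reference for the 61 reversed genes in a fit over all 22 libraries with contrasts that were added after the data were seen. It held 2 control and 3 induced Nanog pools per stage. With Nanog 36 of the 61 fell and 8 rose at E7.5 (9.24% and 7.79% of all genes tested), while at E9.5 4 rose and 2 fell (6.78% and 5.4%). Irx3, Ror2 and Efnb1 were called lower at E7.5 and higher at E9.5 with Nanog too. Elavl2 was called higher at E7.5 and lower at E9.5 with Nanog, as with Oct4. The E9.5 responses of the 2 lines differed for 10 of the 61 genes (1.43% of all genes). The change with stage differed between Oct4 and Nanog for 4 of the 61, Wnt8a, Dpysl3, Adcyap1r1 and Hesx1 (adjusted p = 0.00711, 0.000471, 0.0141 and 0.04), against 90 of 16067 genes tested (0.56%). The 61 genes were chosen by calls in the Oct4 libraries that enter both of these contrasts. Shares above those of all genes can follow from that choice and are no further support. Wnt8a fell with Nanog at E7.5 by 1.47 on the log2 scale and had a response of -0.20 at E9.5 (adjusted p = 0.919). For the other caudal genes the difference between lines was not called, and a p above the threshold does not show that the lines acted alike. For Cdx1 it was 1.67 ± 0.89 (adjusted p = 0.424) and for Hes3 4.89 ± 1.19 (adjusted p = 0.0631). In the Nanog lines themselves the change with stage was called for Hes3, Cdx1, Msgn1, Cdx2 and Hoxb9 (adjusted p = 0.00272, 0.00148, 0.00607, 0.0362 and 4.14e-05). There it was not called for Wnt8a, Cdx4 or Nkx1-2 (adjusted p = 0.412, 0.0594 and 0.261).

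Across libraries, totals ran from 24879784 to 42323659 counts at E7.5 and from 4716147 to 14174717 at E9.5, so the E9.5 response is measured with fewer counts, and 3 counts correspond to 0.0761 to 0.131 CPM at E7.5 and 0.198 to 0.585 CPM at E9.5. The first principal component separated the stages and carried 86% of the variance. Markers of streak and epiblast (T, Mixl1, Fgf5 and Eomes) summed to 228 to 301 CPM in E7.5 controls and 5.68 to 15.98 CPM in E9.5 controls. Defining markers of maternal decidua and blood (Prl8a2, Ptprc and Igfbp1) summed to 67.3 to 124 CPM in control pools at E7.5 and 89.9 to 122 CPM with Oct4, and to at most 3.003 CPM at E9.5. The whole list of 18 maternal genes summed to 235 to 562 CPM in controls and 369 to 642 CPM in induced pools at E7.5, and to 552.5 to 816 and 998 to 1281 CPM at E9.5, where Nkg7 and Prl3c1 were at 0 in all pools. Most of the E9.5 sum came from 2 adult globins that the blood list also holds. Hba-a1 stood at 487, 735 and 617 and 976, 1094 and 835 CPM there and Hbb-b1 at 14.9, 30.4 and 31.1 and 112, 129 and 106 CPM, and neither had a called difference (adjusted p = 0.775 and 0.209). Of the 15 maternal genes tested 1 had a called difference, more negative at E9.5, and 3 rose at E7.5. None of the 3 defining markers had a called difference, and their part in the differences between stages was not tested.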

How the data were processed

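RNA was sequenced from pools of whole embryos. The authors deposited expected counts, made with RSEM 1.17, cutadapt and Picard on build NCBIM37 per the submitters' processing notes, which also name limma. The values are not normalized, and reads that match more than 1 gene are shared out by RSEM. Libraries were read on 2 kinds of Illumina sequencer, per the labels' protocols, which do not say which machine read which library, nor whether strand was kept, so reads of a gene and of an antisense or overlapping partner cannot be told apart. Groups followed the labels. Replicates are pools, so p-values measure the spread between pools.

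Expected counts were rounded and fitted in 1 model over the 4 groups and 12 libraries with edgeR 4.0.16 in R 4.3.3 (quasi-likelihood F test, TMM scaling, filterByExpr filter, robust dispersions). The difference between stages was the contrast of the 2 responses, two-sided, with Benjamini-Hochberg adjustment over all 16359 genes tested of 37680. SE is the contrast divided by the square root of F. Of the gene IDs 37309 matched the GENCODE mouse annotation of release 1. Alternatives were DESeq2 1.42.0, limma-voom (limma 3.58.1), other scalings and filters, thinning, a replicate block, all 22 libraries, and leaving out each library. In simulated counts for this contrast (15982 genes), 65% of 2-fold and 85% of 4-fold changes were called, with 11 calls among 15782 unchanged genes. The simulation gave each gene 1 starting level and 1 dispersion for both stages. Its rates may not hold for the real stages, which differ in level and in spread between pools. Within groups, chi-square per degree of freedom was 1.89 to 67.1, so no library was a copy of another. Totals and the limits set by 3 counts describe counting error only, as the reads carry no molecular identifiers and can be copies of 1 molecule.

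The comparison, the genes and the 37 lists (711 genes) were chosen with earlier results of these data known. Genes were named by size (10 per direction among called genes with a group mean of at least 5 CPM, at least 1 CPM at both stages and separate pools at 1 stage or more), as reversed (8 per direction at the same levels, those with the largest smaller response), and by list (up to 3 with the lowest p). Other genes named were chosen after their values were seen, and some genes that meet the rule are not reported here.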

Additional observations from a re-analysis of the deposited data

Results flagged for a closer look

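The response to Oct4 differed between E7.5 and E9.5, by the test of the difference itself, in 1094 genes. Genes named by size or as reversed are listed here with the difference in log2 response, E9.5 minus E7.5, which the test called in each.

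More positive at E9.5 were Hes3 at 8.70, Pou5f1 at 7.01, Hbb-bh1 at 6.42, Hba-x at 6.41, Wnt8a at 6.38, Cdx1 at 6.22 and Msgn1 at 6.07. Tbx4 at 5.57, Foxd4 at 5.36, Cdx4 at 4.63, Nkx1-2 at 4.49 and Sema4f at 3.31 followed. The call of Hba-x was lost with limma-voom (adjusted p = 0.388).

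More negative at E9.5 were Foxd3 at -5.26, Rgs8 at -3.20, Crym at -2.94, Slc7a11 at -2.935, Ermap at -2.88, Adcyap1r1 at -2.79, Wnt3 at -2.635 and Dclk1 at -2.635. Smaller differences were those of Cntn2 at -2.57, Rnf152 at -2.54, Otx1 at -2.39, Dmrta1 at -2.29, Cnpy1 at -1.80, Nefl at -1.70, Spon1 at -1.49 and Coro1a at -1.39. Ermap, a membrane protein of red cells, rose at E7.5 from 0.0721, 0.165 and 0.0761 to 1.14, 1.44 and 0.755 CPM. Rgs8, a regulator of G protein signalling, rose at E7.5 from 0.469, 0.303 and 0.355 to 2.63, 1.31 and 1.35 CPM and at E9.5 stood at 9.61, 8.59 and 7.69 CPM in controls and 4.5, 4.49 and 4.52 CPM in induced pools. Crym, a thyroid hormone binding protein, fell at E9.5 from 9.09, 5.88 and 3.604 to 1.15, 2.34 and 1.54 CPM.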

How the results depend on the processing

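No gene named by the rule changed the sign of its difference in any analysis run. Over those genes and analyses 2139 values kept their side of the threshold and 143 lost their call. The count of called differences was 1112 with RLE, 1111 with upper-quartile and 1099 with no scaling factors, and the share more positive at E9.5 was 70.3% to 77.9% (72.3% with TMM). With counts thinned to the smallest library 658 differences were called (486 more positive, 172 more negative), and 3 called genes changed sign. The number of reversed genes was 105 with DESeq2 and 114 with limma-voom, which kept 60 and 39 of the 61, and 133 with responses from each stage alone, an alternative added after the data were seen. E7.5 calls were 1002 with limma-voom, 847 after thinning and 991 with E7.5 alone, and E9.5 calls were 1054 with limma-voom and 1297 with E9.5 alone. With the replicate number as a block at E7.5, 1634 differences were called, 1105 more positive and 529 more negative. In that fit 141 genes reversed, and 2458 were called at E7.5 and 554 at E9.5. The main fit did not treat the numbers as pairs. Deviations of each pool's log levels from its group mean were correlated across genes between E7.5 control and induced pools. Same-numbered pools gave 0.295, 0.338 and 0.054, and the other pairs -0.333 to 0.037. These values describe deviations within groups and not the likeness of whole pools. Each pool's deviations correlated best with those of its own number, a hint of pairing from the data only. For number 3 the margin was small (0.054 against 0.037). Whether the numbers mark pairs is not known. At E9.5 the groups share 1 number, so no block was possible there. Leaving out 1 library gave 734 to 1361 called differences (561 to 927 more positive, 170 to 513 more negative), 18 to 109 reversed genes, 1150 to 2010 calls at E7.5 and 97 to 494 at E9.5. More negative differences numbered 179 without E7.5 control 3, 199 and 178 without E9.5 control 1 and 2, 170, 196 and 183 without E9.5 induced 3, 4 and 5, and 513 without E7.5 induced 2. E9.5 calls numbered 146, 104, 97, 124 and 138 without those 5 E9.5 libraries and 494 without E7.5 induced 2. Calls lost most often were those of Furin (16 of 22 alternatives), Rbp4 (15), Lgr5 and Rpl3 (12 each). The shallow E9.5 libraries limit what can be said of genes under 0.585 CPM there, the level of 3 counts in the shallowest.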

Other observations

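Genes of the anterior neural plate, the brain and the Shh pathway responded in more than 1 way. Of 18 anterior neural and eye genes 4 had a more positive and 3 a more negative response at E9.5, while 8 fell and 3 rose at E7.5 and 5 fell and 2 rose at E9.5. The matching shares of all genes tested were 4.84% and 1.85%, then 6.96% and 3.51%, then 0.868% and 1.09%. Lhx2, a LIM homeobox factor of the eye and forebrain, was lower in all induced pools of both stages, from 3.89, 2.95 and 2.84 to 1.7, 1.51 and 1.75 CPM at E7.5 and from 29.2, 28.6 and 29.4 to 23.5, 16.8 and 15 CPM at E9.5, with no called difference (0.31 ± 0.24, adjusted p = 0.562). Of 24 midbrain, hindbrain and neural tube genes 9 were more positive and 2 more negative at E9.5. Egr2, a zinc-finger factor of hindbrain segments, rose at E9.5 from 1.03, 1.12 and 0.721 to 15.5, 8.39 and 7.17 CPM and had at most 0.541 CPM at E7.5 (difference 3.40 ± 0.72, adjusted p = 0.00919). En2, a homeobox factor of the midbrain-hindbrain border, fell at E9.5 from 19.8, 21.3 and 13.7 to 8.73, 7.805 and 7.499 CPM. Of 14 Shh pathway genes 5 were more positive and 1 more negative at E9.5, and Gli1, a target of the pathway, fell at E7.5 from 20.3, 16.4 and 19.5 to 9.09, 5.42 and 8.07 CPM and stood at 53.5, 52.6 and 56.4 and 41.3, 38.4 and 46.6 CPM at E9.5.

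Among signalling and metabolic genes, Notum, a secreted Wnt inhibitor that Wnt signals switch on, went from 10.5, 8.602 and 12.4 to 4.36, 3.301 and 5.12 CPM at E7.5 and from 4.24, 4.96 and 4.21 to 7.47, 6.74 and 8.85 CPM at E9.5, with a difference of 2.10 ± 0.27 (adjusted p = 0.000193). Its higher level at E9.5 was not called in the joint fit (adjusted p = 0.0743) and was called in the fit of E9.5 alone (0.00621). Etv1 and Etv5, targets of FGF signalling, rose at E7.5 and were not called at E9.5, and they were the 2 of 15 FGF feedback genes with a called difference (-1.42 ± 0.22 and -0.61 ± 0.11). Slc2a1, a glucose transporter, stood at 1051 ± 142 CPM in the E7.5 controls and 625 ± 83.5 CPM in the induced pools (mean ± SD, n = 3), and at 306, 341 and 349 and 412, 432 and 408 CPM at E9.5, a difference of 1.08 ± 0.15 (adjusted p = 0.000344). It was 1 of 5 more positive members of the 28 hypoxia and glycolysis genes, and 1 member was more negative (4.84% and 1.85% of all genes tested).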
